A study of Mus musculus with 2 samples.

Results

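The amyloid precursor protein App, its relatives Aplp1 and Aplp2, and 6 genes of the secretases that cut them were measured in poly(A) RNA of mouse brain. The 9 genes were chosen by symbol, from 43346 genes in the deposited tables, and 35 of 103639 transcripts belong to them. The brain was that of a single male of the inbred strain C57BL/6J, aged 10 weeks, with no treatment or altered allele named in the labels. Its RNA gave 2 libraries, labelled technical replicates 1 and 2 of 1 biological replicate. They are called library 1 and library 2 here, and library 2 was made later. The sources used here do not say whether both start from 1 RNA extract. The spread between them therefore holds no difference between animals.

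App is a membrane protein that is cut in sequence. Cleavage by the alpha-secretase Adam10 releases a soluble ectodomain and destroys the amyloid-beta peptide, whereas cleavage by the beta-secretase Bace1 leaves a stub from which gamma-secretase frees that peptide. Gamma-secretase is a membrane complex of a presenilin, which holds the active site, with nicastrin (Ncstn), an Aph1 subunit and the presenilin enhancer Psenen. In adult brain App is a gene of neurons above all and is also expressed in glia, while Aplp1 is mostly neuronal and Aplp2 is found in many tissues.

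The libraries held 18302506 and 17828479 expected counts, which are estimated fragments per gene, and differed widely over all genes. Pearson's r of log2(TPM + 1) was 0.666 over the 14229 genes whose mean TPM reached 1, where TPM is a level per transcript length that sums to a fixed total. Mitochondrial genes and their nuclear copies held 63.2% of TPM in library 1 and 29.1% in library 2, so all other levels share a smaller remainder in library 1. The 5 neuronal markers summed to 4086 and 4462 TPM, and the 5 astrocyte markers to 701 and 794, but single markers went in opposite directions. Snap25 was at 3457.02 and 2763.92 TPM, while Rbfox3 was at 14.72 and 130.54, Tubb3 at 25.69 and 308.68 and Eno2 at 85.18 and 688.96. Among astrocyte markers Slc1a2 was at 396.66 and 346.14 TPM and Aqp4 at 69.76 and 48.83, while Gfap was at 15.33 and 109.29 and Aldh1l1 at 2.1 and 34.79. Sums were 2165 and 5221 for oligodendrocytes, 63.4 and 196 for microglia, and 94.5 and 129 for endothelial cells. The 4 blood markers stood at 48.6 and 949 TPM, the 4 of choroid plexus at 77.0 and 875, and the 4 of meninges at 21.9 and 28.1. Folr1 of choroid plexus and Hba-a1 of blood were at 0 in library 1. The 3 liver markers summed to 72.1 and 862 TPM, nearly all of it Ttr, which choroid plexus shares, with Apoa1 at 0 in library 1. Muscle markers summed to 0.06 and 10.1 TPM and pituitary markers to 0 and 2.27, with Gh at 0 in both libraries. The part of these differences in the results below was not tested. In bulk tissue, fewer cells of a type and less RNA per cell cannot be told apart. Nor can either be told apart here from a difference between the libraries themselves, whose count ratios followed GC content over all genes (below).

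App was the most abundant of the 9 genes in both libraries, and 8 of the 9 had a higher TPM in library 2. Adam10 was the exception. All 9 reached a mean TPM of at least 1 and at least 10 counts over both libraries, so none was left out. Each gene's rounded expected counts were compared by an exact binomial test, two-sided, with library sizes scaled by TMM. A call needed both a 2-fold difference and an adjusted p (Benjamini-Hochberg, over all tested genes) under 0.05. Of the members, 5 were called higher in library 2 (Aplp1, Psen2, Ncstn, Psenen and Aph1a), 1 lower (Adam10) and 3 were not called (App, Aplp2 and Bace1). The same rule called 58.2% of 16320 tested genes, 34.5% higher and 23.8% lower, so most genes of these libraries differ and a call is common among them. The median log2 count ratio was 1.34 for the members and 0.09 for all tested genes. With a trend on GC content removed, as described below, these medians were -0.16 and -0.02. The test compares these libraries, not conditions, and no difference has a replicate check.

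**Figure D1:**
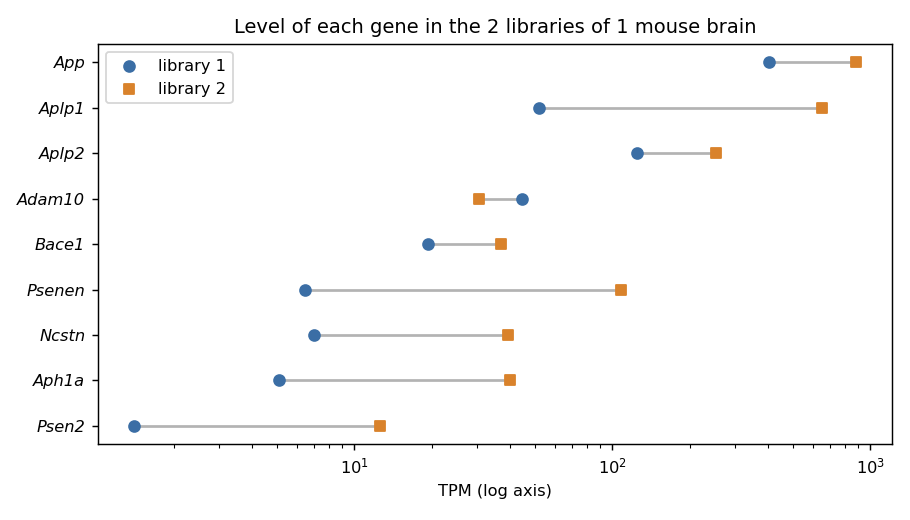
TPM of each gene on a log axis, with a circle for library 1 and a square for library 2, joined by a line. The lines are short for App, Aplp2, Bace1 and Adam10 and long for Aplp1, Psenen, Ncstn, Aph1a and Psen2, and Adam10 alone has its square to the left, at 30.33 against 44.54 TPM.

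App (ENSMUSG00000022892.10, chromosome 16, 84949685 to 85173766, minus strand, GRCm38) was at 405.85 TPM in library 1 and 883.97 in library 2, with a mean of 645 ± 338 (SD, n = 2). Its counts were 17175 and 28182. In both libraries it lay above 99.4% or more of the genes with any TPM. The TPM ratio was 2.18 (95% counting interval 2.14 to 2.22), whereas the count ratio with TMM sizes was 0.14 on the log2 scale and was not called. With mitochondrial genes and their nuclear copies taken out of the total, App stood at 1102 and 1247 TPM, a ratio of 1.13.

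Aplp1, whose protein sits at the cell surface and binds other family members across cell contacts, differed far more. The gene (ENSMUSG00000006651.7, chromosome 7, 30434982 to 30445535, minus strand) was at 52.19 TPM in library 1 and 652.48 in library 2 (352 ± 424, SD, n = 2), with 1656 and 15589 counts. Library 2 held 12.5 times the TPM of library 1 (11.9 to 13.2). The log2 count ratio was 2.66 with TMM sizes and 3.27 with library totals, and the gene was called higher with both. Aplp1 also has the highest GC content of the 9 genes, 60.2%, and with a trend on GC removed it was called lower, at -1.84.

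Aplp2 (ENSMUSG00000031996.12, chromosome 9, 31149557 to 31211815, minus strand) was at 124.61 and 252.62 TPM (189 ± 90.5, SD, n = 2), from 6032 and 9294 counts. Its log2 count ratio was 0.05 with TMM sizes (exact binomial test, adjusted p = 0.0397), far below the 2-fold that a call needs. Without the mitochondrial genes and copies its TPM was 338 and 356. App and Aplp2 thus kept nearly the same quotient in both libraries, 3.26 and 3.50, while App over Aplp1 was 7.78 in library 1 and 1.35 in library 2. Of the summed TPM of the family, 583 and 1789, App held 69.7% and 49.4%, Aplp2 21.4% and 14.1%, and Aplp1 8.96% and 36.5%. Aplp1 stood below Aplp2 in library 1 and above it in library 2.

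The family members are spliced, and the exon that matters most for their proteins encodes a Kunitz domain, an inhibitor of serine proteases. For App, forms without it predominate in neurons, and forms with it are common in other cells. The deposited tables hold 1 App transcript, App-201, with 2085 coding bases (695 codons), which lacks that exon, and it carried 100% of App in both libraries by construction. In the later annotation (GENCODE M21) 6 of 11 App transcripts hold the exon, so the tables used here give no measure of App with the Kunitz domain. For Aplp2 they hold 2 forms, which differ at 2 exons. Aplp2-201 of 2253 coding bases has the Kunitz exon. Aplp2-202 of 2121 coding bases lacks it and has instead a 36-base exon further on, whose absence makes a site for chondroitin sulfate. The transcripts differ by 132 bases in the deposited lengths, which is what an exon of 168 bases less the 36-base exon gives. The exons that separate these forms are given here from the GENCODE M21 transcripts (GRCm38), 5' to 3' on the strand of the mRNA, with capitals for each run of 4 or more bases that are all G or C. They are coding, and the App exon is printed for comparison with that of Aplp2.
Aplp2 Kunitz exon, exon 7 of Aplp2-201, chr9:31167561-31167728, minus strand: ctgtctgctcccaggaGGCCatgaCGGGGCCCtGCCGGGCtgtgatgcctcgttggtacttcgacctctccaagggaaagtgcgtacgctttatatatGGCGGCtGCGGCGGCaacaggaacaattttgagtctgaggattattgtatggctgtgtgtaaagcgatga
Aplp2 36-base exon, exon 13 of Aplp2-202, chr9:31156190-31156225, minus strand: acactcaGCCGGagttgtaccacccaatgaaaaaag
App Kunitz exon, exon 7 of App-206, chr16:85043576-85043743, minus strand: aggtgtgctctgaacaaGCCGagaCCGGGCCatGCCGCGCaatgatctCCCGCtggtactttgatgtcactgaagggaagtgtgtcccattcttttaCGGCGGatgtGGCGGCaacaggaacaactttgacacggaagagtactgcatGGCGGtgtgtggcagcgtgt
Both Kunitz exons are 168 bases long, and 114 of the 168 bases (67.9%) are the same when they are set side by side without gaps.

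The Kunitz form of Aplp2 was at 24.35 TPM in library 1 and 105.02 in library 2, and the form without it at 100.26 and 147.6. The first was thus 4.31 times as high in library 2 and the second 1.47 times. The Kunitz form held 19.54% of Aplp2 TPM in library 1 and 41.57% in library 2. By counts its share was 20.2% of 6032 (exact Clopper-Pearson interval 19.2 to 21.2%) and 42.5% of 9294 (41.5 to 43.5%). The deposited standard deviation of the count, which covers reads that fit both forms, was 70.24 against 1215.87 counts in library 1 and 102.58 against 3951.54 in library 2. The gap between the libraries is larger than that error and the counting error. The Kunitz exon has 54.8% GC and the 36-base exon 47.2%, while whole transcripts are alike at 48.4% and 48.1%. The part of that difference in the isoform shares was not tested.

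**Figure D2:**
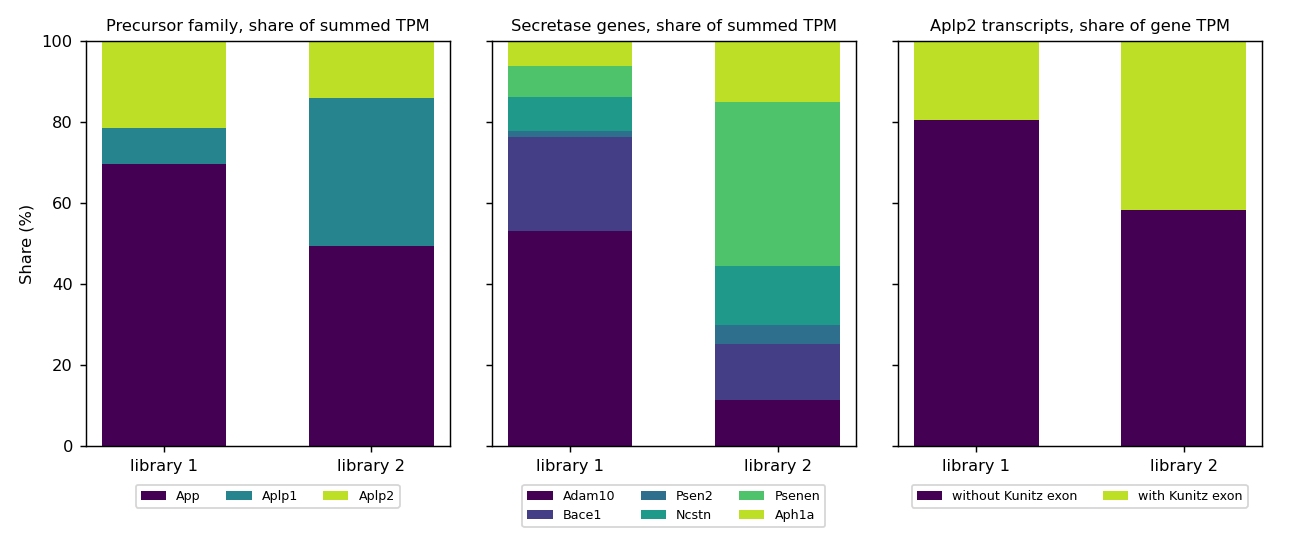
Stacked bars for each library, in percent, of the summed TPM of the precursor family, of the summed TPM of the 6 secretase genes, and of Aplp2 TPM by transcript. Aplp1 goes from 8.96% to 36.5% of the family, Psenen from 7.67% to 40.5% of the secretase genes, and the Kunitz form from 19.54% to 41.57% of Aplp2.

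Among the secretases, the alpha-secretase gene stood above the beta-secretase gene in library 1 and below it in library 2. Adam10, a membrane-bound metalloprotease (ENSMUSG00000054693.10, chromosome 9, 70678997 to 70780229, plus strand), was at 44.54 and 30.33 TPM (37.4 ± 10.0, SD, n = 2), with 2806 and 1438 counts. It was the only member lower in library 2, with a TPM ratio of 0.681 (0.639 to 0.726). The log2 count ratio was -1.54 with TMM sizes, where it was called lower, and -0.93 with library totals, where it was not called. Its transcript Adam10-201 held 99.31% and 99.13% of its TPM, so the level is that of a single coding form.

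Bace1, the aspartic protease that makes the first cut toward amyloid-beta (ENSMUSG00000032086.8, chromosome 9, 45838580 to 45864399, plus strand), was at 19.38 and 36.98 TPM (28.2 ± 12.4, SD, n = 2). Its counts, 1305 and 1775, gave a log2 ratio of -0.13 with TMM sizes (exact binomial test, adjusted p = 0.0194) and 0.48 with library totals, and it was not called with either. Without mitochondrial genes and copies its TPM was 52.6 and 52.2, the closest match of the 9 genes. The quotient of Adam10 over Bace1 was 2.30 in library 1 and 0.820 in library 2. That of App over Bace1 was 20.9 and 23.9, and that of App over Adam10 9.11 and 29.1.

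The estimated mix of Bace1 transcripts also differed between the libraries. Bace1-201, of 501 codons, held 59.16% of its TPM in library 1 and 46.45% in library 2. Bace1-202, of 467 codons, lacks an internal exon of 102 bases and has a shorter last exon. It had 0 counts in library 1 and 408.98 in library 2, where it held 26.47%. Because the isoforms share reads, a count of 0 is itself an estimate. The deposited 95% credibility interval of its TPM reached up to 0.343 in library 1 and ran from 6.61 to 11.6 in library 2. Bace1-204, which retains an intron and has no annotated coding sequence, held 40.84% and 22.79%. The exon that Bace1-201 has and Bace1-202 lacks is printed with the same use of capitals.
Bace1 exon 6 of Bace1-201, chr9:45858400-45858501, plus strand: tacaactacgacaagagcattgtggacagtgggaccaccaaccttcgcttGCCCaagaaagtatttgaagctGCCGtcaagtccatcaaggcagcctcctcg
The deposited standard deviation of the Bace1-202 count was 6.09 in library 1 and 54.71 in library 2. Transcript GC was 50% for Bace1-201 and 53.1% for Bace1-202, and its part in this result was not tested.

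The 4 gamma-secretase genes among the members, Psenen, Ncstn, Aph1a and Psen2, were all called higher in library 2, with TMM sizes and with library totals. Of all tested genes, 34.5% were called higher with TMM sizes and 43.4% with totals. The transcripts of these 4 genes had 51.9 to 55.5% GC. Other tested genes had a median log2 count ratio of 1.01 at 50 to 55% GC and 3.28 at 55 to 60%. With the GC trend removed, Psenen and Ncstn kept the higher call, against 10.3% of all tested genes, and Aph1a and Psen2 were not called. The summed TPM of the 4 genes was 19.9 in library 1 and 201 in library 2, a ratio of 10.1. The summed precursor family had a ratio of 3.07. Psenen, whose small protein completes the complex and allows the presenilin to cut itself into its active form (ENSMUSG00000036835.6, chromosome 7, 30561863 to 30563627, minus strand), was at 6.43 and 108.51 TPM (57.5 ± 72.2, SD, n = 2). From 43 and 542.35 counts, its TPM ratio was 16.9 (12.4 to 23.6), the highest of the 9 genes. It held 32.3% of the summed TPM of the 4 genes in library 1 and 54.1% in library 2.

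Ncstn, the large glycoprotein that receives substrates (ENSMUSG00000003458.8, chromosome 1, 172066013 to 172082795, minus strand), was at 6.96 and 39.28 TPM (23.1 ± 22.9, SD, n = 2), from 174 and 980 counts. The ratio of TPM was 5.64 (4.80 to 6.67). Its coding transcript Ncstn-201 held 53.77% of its TPM in library 1 and 80.15% in library 2, or 3.74 and 31.48 TPM. Transcripts with a retained intron made up 46.2% and 19.9%. Among these, Ncstn-202 and Ncstn-205 held 32.27% and 13.96% in library 1 and 2.52% and 1.32% in library 2. Ncstn-203 had 0 counts in library 1 and 43.9 in library 2, where it held 16.01%. The library 1 shares of Ncstn-202 and Ncstn-205 rest on 19.72 and 8.22 counts.

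Aph1a, a scaffold subunit of the complex (ENSMUSG00000015750.11, chromosome 3, 95893969 to 95898288, plus strand), was at 5.09 and 40.30 TPM (22.7 ± 24.9, SD, n = 2). Its counts were 196 and 741, a ratio of 3.78, while its TPM ratio was 7.92 (6.76 to 9.32). TPM also takes in its scaling, which is common to all genes (App had a TPM ratio of 2.18 and a count ratio of 1.64), and the effective length, the number of bases in which a fragment can start averaged over the estimated transcripts. The effective length of Aph1a was 2680.38 in library 1 and 1696.12 in library 2. In library 1 the longer transcript Aph1a-201 held 100% of the gene. In library 2 it held 47.4%, at 19.1 TPM, and the shorter Aph1a-202 held 52.6%, at 21.2 TPM. Aph1a-202 had 0 of 196 counts in library 1, with a deposited standard deviation of 3.78 counts, and 186.83 of 741 in library 2. The posterior mean estimate, which is pulled toward equal use when counts are few, gave it 8.36% in library 1 and 52.4% in library 2.

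Psen2, a presenilin gene and thus a source of the catalytic subunit (ENSMUSG00000010609.11, chromosome 1, 180227004 to 180263438, minus strand), was lowest of the 9 genes in both libraries. It was at 1.40 and 12.63 TPM (7.02 ± 7.94, SD, n = 2), from 16 and 227 counts, a TPM ratio of 9.02 (5.44 to 16.1). Posterior mean TPM, 3.12 and 15.32, gave a ratio of 4.91, which lies outside that counting interval. In library 1 those 16 counts were spread by the estimate over 3 of its 12 transcripts, and the coding forms together held 14% of TPM. In library 2 coding forms held 83.4%, of which Psen2-205 made up 75.2% of the gene with 186.35 counts. The processed transcript Psen2-208 and the intron-retaining Psen2-206 held 42.65% and 43.35% in library 1 and 0 in library 2. The posterior mean estimate put the coding forms at 49.9% and 72.5%. The transcript mix of Psen2 in library 1 is therefore not measurable at this depth, and its effective length, 792.91 and 1657.97 bases, follows that mix.

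The order of the levels was only partly the same in the libraries. Library 1 gave App, Aplp2, Aplp1, Adam10, Bace1, Ncstn, Psenen, Aph1a and Psen2, and library 2 gave App, Aplp1, Aplp2, Psenen, Aph1a, Ncstn, Bace1, Adam10 and Psen2. Of the 36 pairs of genes, 26 stood in the same order in both, and 20 had ranges over the libraries that did not overlap. App and Aplp1, and Aplp1 and Aplp2, were not separated in this way, nor were any of Adam10, Bace1, Psenen, Ncstn and Aph1a from each other. Psen2 was not separated from Ncstn, Psenen and Aph1a, since Psen2 in library 2 (12.63 TPM) lay above each of them in library 1. Every precursor gene was above every secretase gene within each library. The ranges overlapped for 1 of those pairs, Aplp1 and Psenen, since Psenen in library 2 lay above Aplp1 in library 1. The deposited 95% credibility intervals of TPM overlapped in library 1 for Ncstn (5.65 to 8.29), Psenen (4.42 to 8.04) and Aph1a (4.26 to 6.00). The interval of Psen2 (1.26 to 5.58) also reached those of Psenen and Aph1a. In library 2 they overlapped for Aph1a (33.4 to 40.8), Ncstn (34.0 to 39.7) and Bace1 (32.7 to 39.5). These intervals belong to the posterior mean TPM, which is lower than the TPM given above for the abundant genes (382.44 and 814.8 for App).

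The members' ratios followed the GC content of their transcripts, as those of all genes did. Adam10, with 42.1% GC, had the lowest log2 count ratio. App, Aplp2 and Bace1, at 51.4%, 48.2% and 51.3%, were near 0. Aplp1, Psen2, Psenen and Aph1a, at 60.2%, 55.5%, 53.8% and 54.3%, were at 1.34 or more. Ncstn, at 51.9%, had nearly the GC content of App and a log2 count ratio of 1.92. Spearman's rho of log2 count ratio and GC was 0.87 over the 9 genes and 0.90 over 16263 tested genes, within 1 pair of libraries. Over the 9 genes, Pearson's r of the log2 ratio of TPM + 1 was 0.87 with GC and -0.75 with log2 length, so the members' ratios also went with length. Genes are not independent replicates, and no p is given.

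Set beside the other genes of their GC class, the members lay on both sides of the median. The classes are broad: at 50 to 55% GC the fitted trend was 0.84 for Ncstn and 1.85 for Aph1a. A rank within a class can therefore differ in direction from the ratio with the trend removed. The 4191 other tested genes with 50 to 55% GC had a median log2 count ratio of 1.01. App exceeded 18.7% of them, Bace1 11.7%, Aph1a 61.6%, Ncstn 75.8% and Psenen 92.0%. Among 613 genes with 60 to 65% GC, whose median was 4.92, Aplp1 at 2.66 exceeded 14.5%. Aplp2 exceeded 77.4% of 4327 genes with 45 to 50% GC (median -0.47), Psen2 48.5% of 3126 with 55 to 60% (median 3.28), and Adam10 26.3% of 3083 with 40 to 45% (median -1.30). With a smooth GC trend removed, the exact binomial test called Psenen (log2 count ratio 1.45) and Ncstn (1.08) higher and Aplp1 (-1.84) lower. By that rule 19.5% of all tested genes were called, 10.3% higher and 9.19% lower. The other 6 members were not called, with Adam10 at -0.16, Aplp2 at 0.33, Aph1a at -0.50, App at -0.51, Psen2 at 0.74 and Bace1 at -0.74. The SD of the members' log2 count ratios was 1.66 before and 1.02 after the trend was removed.

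**Figure D3:**
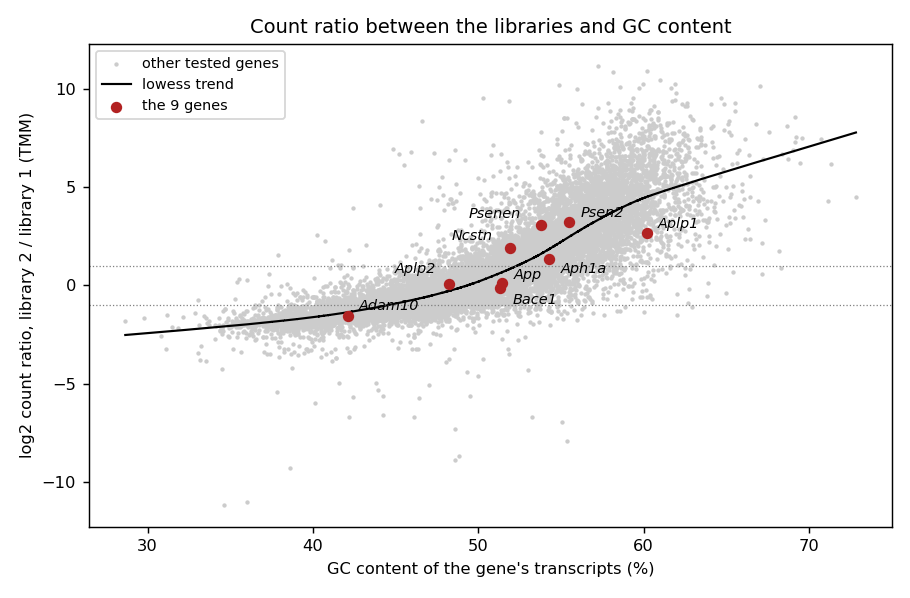
Log2 count ratio of library 2 over library 1 with TMM sizes, against the GC percent of each gene's transcripts. Grey points are the other tested genes, the black line is the lowess trend, dotted lines mark 2-fold, and the 9 genes are red: Psenen and Ncstn lie above the line and Aplp1, at 60.2% GC, below it.

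How a ratio was scaled decided the call for some members and not for others. Library totals in place of TMM raised all log2 count ratios by 0.61, took the median of all genes from 0.09 to 0.70, and called 7076 genes higher and 1278 lower in place of 5625 and 3877. The 5 higher calls among the members remained with totals, where 43.4% of genes were called higher, and the lower call of Adam10 ended, where 7.83% were called lower and 51.2% in all. A fold of TPM + 1 past 2 was reached by 7 members, App and Aplp2 among them at log2 ratios of 1.12 and 1.01, with 42.5% of tested genes higher, 1.37% lower and 43.9% in all. DESeq2 size factors called 5 members higher and 1 lower (35.2% and 22.3% of genes, 57.5% in all). So did totals that leave out mitochondrial genes and copies (38% and 16.6%, 54.7% in all), posterior mean counts (34.2% and 23.8%, 58% in all), removal of a trend on length (28.9% and 30.6%, 59.4% in all), and no filter on low counts (26.5% and 18.4%, 44.9% in all). After mitochondrial genes and copies were taken out of TPM, the log2 ratios of App, Aplp2 and Bace1 were 0.18, 0.08 and -0.01, that of Adam10 -1.48, and those of Aplp1, Psenen, Ncstn, Aph1a and Psen2 from 1.5 to 3.06.

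**Figure D4:**
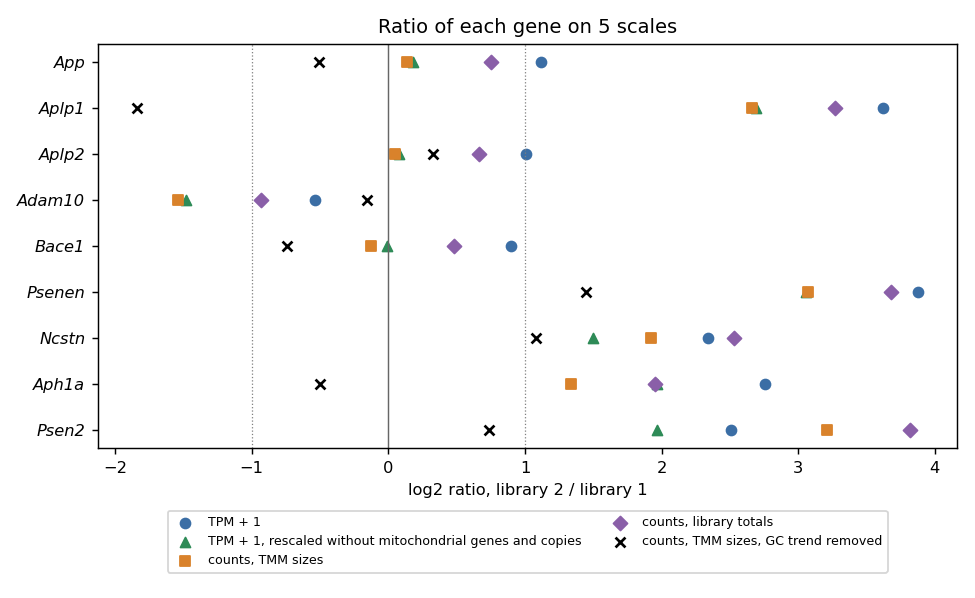
Log2 ratio of library 2 over library 1 for each gene on 5 scales, with dotted lines at 2-fold. App, Aplp2 and Bace1 cluster near 0 on the count scale with TMM and on TPM without mitochondrial genes and copies, while Aplp1 goes from 3.62 on the TPM + 1 scale to -1.84 with the GC trend removed.

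Reads were assigned to the members with little sharing between genes. The deposited standard deviation of the gene's count was 0 in both libraries for 7 members and reached 2.72 counts for Aph1a and 1.43 for Psenen. Psenen, Ncstn, Aph1a and Bace1 overlap protein-coding genes on the opposite strand, by 327 bases with U2af1l4 for Psenen, 267 with Copa for Ncstn, 521 with Car14 for Aph1a and 975 with Rnf214 for Bace1. Psenen also overlaps Gm49396, annotated as protein-coding, by 284 bases. Antisense genes lie over Psen2 (Gm31728, 7010 bases), App (Gm10791, 7238 bases, and 2 smaller) and Bace1 (Gm16536, 1589 bases). These overlaps are of whole gene spans in GENCODE M21, introns included, and do not measure shared reads. The sources used here do not say whether counting used strand, so the strand of origin of reads in those stretches is not known.

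Genes that act with the members were listed by role and tested in the same fit. Of 51 listed, 50 had a row and were tested, and 24 were called higher in library 2, 11 lower and 15 not, against 34.5% and 23.8% of all tested genes. With library totals 27 were higher and 6 lower, against 43.4% and 7.83% of all genes, and with the GC trend removed 7 and 6, against 10.3% and 9.19%. Among related secretase subunits and proteases, 0 of 5 were higher and 2 lower (median log2 count ratio -0.94), and with totals 0 were called. Adam9, a metalloprotease, was at 25.36 and 25.83 TPM. Aph1b, an alternative Aph1 subunit, was at 16.53 and 14.16 TPM and was called lower, though its reads can be split with its near copy Aph1c. Adam17, the other well-known alpha-secretase, was at 7.52 and 7.08 and was also called lower. In library 1 Aph1b stood above Aph1a (16.53 against 5.09 TPM), and in library 2 Aph1a stood above Aph1b (40.30 against 14.16).

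Of 14 genes for maturation and regulation of the secretases, 7 were called higher and 3 lower (median log2 count ratio 0.57), against 34.5% and 23.8% of all tested genes. With totals 7 and 1 were called, against 43.4% and 7.83%, and with the GC trend removed 3 and 2, against 10.3% and 9.19%. The reticulons Rtn4 and Rtn3, which bind Bace1, gave 930.42 and 565.06 TPM for the first and 678.45 and 592.57 for the second. Both were called lower with TMM sizes, and Rtn4 also with totals. With the GC trend removed neither was called (log2 count ratios -0.26 and -0.38), and the lower calls were other genes of the list. The membrane protein Itm2b, which restrains App processing, was at 542.83 and 664.41 TPM and was not called. Its relative Itm2c was at 8.41 and 506.71 TPM, a ratio of 60.3, and was called higher with and without the GC trend. Furin, a convertase that removes the propeptide of Adam10, was at 0.36 and 11.23 TPM, from 23 and 461 counts, and was called higher, but with the GC trend removed it was not called (log2 count ratio -0.58).

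Of 8 measured adaptors that bind the cytoplasmic tail of the precursor family, 4 were called higher and 1 lower (median log2 count ratio 1.76), with the same shares of all genes beside them (34.5% and 23.8%). With totals 6 and 0 were called (all genes 43.4% and 7.83%), and with the GC trend removed 1 and 1 (10.3% and 9.19%). Apbb1, known as Fe65, was at 19.96 and 309.22 TPM, the JNK scaffold Mapk8ip1 at 8.91 and 208.87, and Apba2 at 6.71 and 99.78, all called higher with TMM sizes and with totals and none of the 3 with the GC trend removed. Dab1, the adaptor of reelin receptors, was at 27.05 and 31.91 TPM but had 1776 and 1303 counts. It was called lower with TMM sizes, but not with totals or with the GC trend removed. Apba3 had 0 counts in library 1, which allows up to 3, and 234 in library 2.

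Sorting and uptake genes had 4 of 8 higher and 2 lower (median log2 count ratio 1.24), beside 34.5% and 23.8% of all genes. With totals it was 5 and 2 (all genes 43.4% and 7.83%), and with the GC trend removed 2 and 0 (10.3% and 9.19%). Apoe, the lipid carrier of astrocytes, was at 8.51 and 2133.02 TPM, and Lrp1, an endocytic receptor of Apoe and App, at 1.07 and 109.41. Clu, an extracellular chaperone, stood at 231.99 and 646.75 TPM and Bin1, a membrane-bending protein, at 11.59 and 140.39, and these 4 were the higher calls. Apoe and Lrp1 were also called higher with the GC trend removed, and Clu and Bin1 were not. Vps35, of the retromer that returns App and Bace1 from endosomes, was lower at 212.49 and 127.11 TPM, with totals as well. Of 4 proteases that degrade amyloid-beta, Ece1 (1.73 and 25.95 TPM) and Ece2 (2.84 in library 1, with a TPM ratio of 7.04) were called higher, Mme, or neprilysin, lower (10.77 and 6.89), and Ide was not called (25.59 and 24.37). For these 4 the median log2 count ratio was 0.44, and the calls were the same with totals. With the GC trend removed Ece1 was called lower (log2 count ratio -1.21), and Ece2, Mme and Ide were not called. Median GC content was 45.3% for the related subunits and proteases, which held no higher call, and 55.5% for the adaptors. With the GC trend removed, the median log2 count ratio was -0.01 for the related subunits and proteases and 0.17 for the adaptors. It was 0.09 for maturation and regulation, -0.05 for sorting and uptake and 0.02 for the amyloid-beta degrading proteases. For all tested genes it was -0.02.

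**Figure D5:**
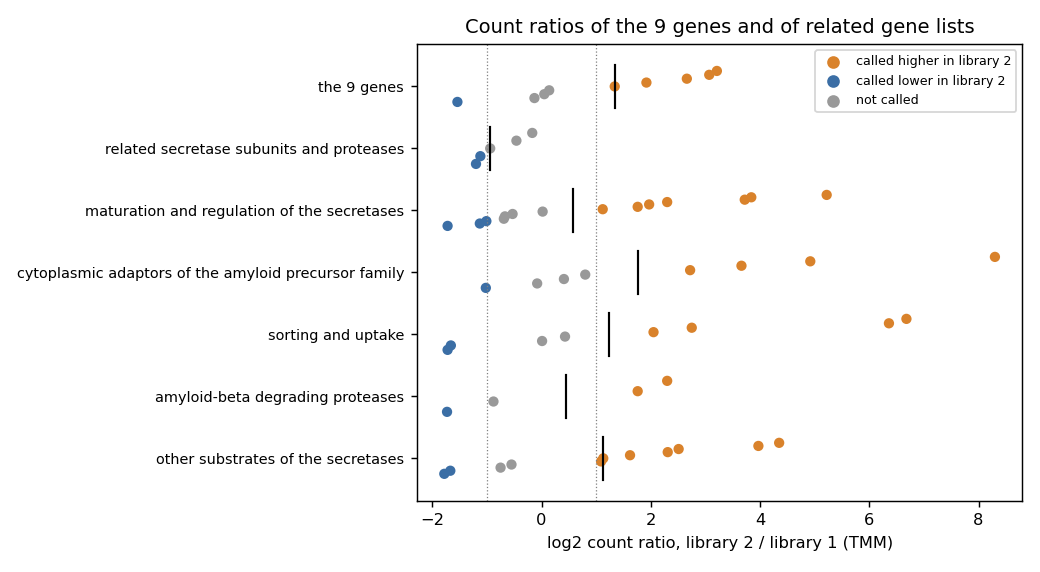
Log2 count ratio of library 2 over library 1 with TMM sizes for the 9 genes and each list, as points coloured by call, with a black bar at the list's median and dotted lines at 2-fold. Medians run from -0.94 for related subunits and proteases to 1.76 for the adaptors, and every list but the related subunits and proteases has points called on both sides.

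For each member the protein-coding gene nearest in level was found by the distance of log2(TPM + 1) over the 2 libraries. The nearest genes were Chn1 for App (382.92 and 822.17 TPM), Pebp1 for Aplp1 (54.94 and 616.58), Enc1 for Aplp2 (130.13 and 255.16), Acadm for Bace1 (19.3 and 37.08), Lrrtm2 for Adam10 (43.67 and 30.36), Pianp for Psenen (6.4 and 106.57), Dmac2 for Ncstn (7.09 and 39.77), Ddit4 for Aph1a (5.23 and 41.26) and Map3k4 for Psen2 (1.36 and 12.55). Distances ran from 0.007 for Acadm to 0.134 for Chn1. The likeness is over 2 values each.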

How the data were processed

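Poly(A) RNA of 1 mouse brain was measured in 2 libraries, taken as 1 group. Per library, the authors deposited a gene and a transcript table on mm10 with GENCODE M4, per the file listing. Expected counts, TPM and FPKM were deposited by the authors, as was the percent of a gene's TPM held by each transcript. The deposited tables also give posterior mean versions, and as further score columns the credibility bounds, standard deviations of counts and effective lengths. The column names are those RSEM writes. Quantifier, aligner, versions and use of strand: not given in the sources used here. FPKM was not used.

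Rows that name no gene (0 and 1 counts) were left out. GENCODE M21 (GRCm38), matched without version, supplied symbols, positions and sequences. Sequences were found for 97.95% of transcripts and had the deposited length for 88.21%. Gene GC content is weighted by mean TPM over transcripts.

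Expected counts were rounded and tested by an exact binomial test with TMM sizes (edgeR 4.0.16, R 4.3.3), where both libraries together held 10 counts or more, with 0.5 added for the fold. The test was checked on simulated counts with counting error only, scaled by library totals and without a GC trend. That check does not cover the wider differences between these libraries. With 1 library a side, neither edgeR's quasi-likelihood model nor that of DESeq2 could be fitted. Alternatives were totals, DESeq2 1.42.0 size factors, posterior means, lowess trends (fraction 0.2, statsmodels 0.14.6), other filters and pseudocounts. Log2 ratios of TPM add 1, which understates low genes. Intervals are 95% and cover counting error only. Depth was 18302506 and 17828479 counts. Other steps used Python 3.11.15 and scipy 1.17.1.

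Named were the members, their transcripts with at least 10% in a library, and per list the 3 genes of highest mean TPM with up to 2 more called genes of the largest ratio. Aph1c was named after its values were seen. The members and lists were chosen with earlier results of these data known.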

Additional observations from a re-analysis of the deposited data

How the results depend on the processing

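No paired analysis was possible because there is 1 group, and both libraries come from 1 mouse. With the GC trend removed 3 members were called in place of 6, 2 of them higher in place of 5. Among all genes it called 3177 in place of 9502, 1678 higher and 1499 lower, and among other pathway genes 13 in place of 35, 7 higher and 6 lower. It turned the log2 count ratio of Aplp1 from 2.66 to -1.84, of Aph1a from 1.34 to -0.50 and of App from 0.14 to -0.51. With library totals 0 members, 1278 genes and 6 pathway genes were lower in library 2, and with totals that leave out mitochondrial genes and copies 6 pathway genes were. By a fold of TPM + 1 past 2 the lower calls were 0 members, 224 genes and 0 pathway genes. The log2 count ratio of Bace1, -0.13 and not called, became 0.48 with totals, 0.13 with totals without mitochondrial genes and 0.03 with the length trend removed. Its log2 ratio of TPM + 1, a different measure, was 0.90. On TPM rescaled without mitochondrial genes the log2 ratios were 0.18 for App, 0.08 for Aplp2, -0.01 for Bace1 and -1.48 for Adam10, in place of 1.12, 1.01, 0.90 and -0.54. Without a filter on low values Pearson's r was 0.871 in place of 0.666. The cause of these moves was not tested. DESeq2 size factors, posterior mean counts and no filter on low counts left the number of members called unchanged, at 5 higher and 1 lower. Psen2 and Psenen, with 16 and 43 counts in library 1, are limited most by depth.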

Other observations

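Other substrates of the secretases were also measured, and 7 of 11 were called higher in library 2 and 2 lower by the exact binomial test with TMM sizes, with a median log2 count ratio of 1.13. Of all tested genes 34.5% were higher and 23.8% lower, with a median of 0.09. With library totals the numbers were also 7 and 2, against 43.4% and 7.83% of all genes. Dner, a Notch-related protein of neurons, was at 59.06 TPM in library 1 and 69.38 in library 2 and was not called, but with the GC trend removed it was called lower (log2 count ratio -1.63). Chl1, an adhesion protein cut by Bace1, was at 56.36 TPM in library 1, with a TPM ratio of 0.621, and was called lower. With the GC trend removed it was not called (log2 count ratio -0.03). Cdh2, the N-cadherin cut by Adam10, was at 34.82 and 45.28 TPM and was not called. Sez6, a neuronal substrate of Bace1, was at 1.95 and 72.93 TPM, a ratio of 37.4, and Nfasc, an adhesion protein of the axon, at 5.53 and 59.11. Both were called higher, and neither was called with the GC trend removed. With that trend removed 1 of the 11 was higher, against 10.3% of all genes, and 2 were lower, against 9.19%. The median log2 count ratio was then -0.21 for the 11 and -0.02 for all tested genes.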
